A study of Mus musculus with 16 samples.

Results

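Marginal zone B cells sit at the border of the splenic white pulp, meet blood-borne antigen early and are kept there by receptors for sphingosine 1-phosphate. In mice their formation needs the receptor Notch2, whose cleaved inner part binds the DNA-binding protein Rbpj and switches on targets such as Dtx1. They carry much complement receptor (Cr2) and Cd1d1 and little of the IgE receptor Fcer2a (CD23), while follicular B cells carry the opposite pattern for Cr2 and Fcer2a. The 10 genes of this biology followed here, called members below, are Cr2, Cd1d1, S1pr3, Myof, Tm6sf1, Notch2, Dtx1, Asb2, Plac8 and, as the follicular counter-marker, Fcer2a. They were taken by name from the annotation column of the arrays, with S1pr3 listed there as Edg3 and Myof as Fer1l3, and all 10 were among the 20469 genes tested. They are covered by 17 probes, of which 16 passed the filter on dim probes.

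RNA of mouse follicular B cells, strain C.B17, was measured on 16 two-colour arrays, a dye-swap pair for each of 8 samples, against a common reference pooled from 6 cell lines. Auto.Pos (2 samples) came from AGcAμκTg mice, transgenic for VH3609μ and Vk19-17κ and autoreactive against intestinal goblet cells; another label field gives the light chain as Vkappa17-17kappa. Auto.Neg (2 samples) came from ATAμκTg mice, transgenic for VH3609μ and Vk21-5κ, whose receptor recognises thymocytes (Thy-1) and which carried a Thy-1 knockout, so that the antigen was missing. WT (2 samples) came from wild-type mice. Edited and Non-edited (1 sample each) came from VH3609t +/- x Vk21-5Tg +/- mice, also with the Thy-1 knockout. The labels give no age or sex, and do not say whether the samples of a group are separate mice, so that a p-value speaks for the spread among these samples, which may be technical. Every value is a log2 ratio of sample over reference, averaged over the dye-swap arrays. It ranks samples for a gene and does not rank genes.

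Between 61.9% and 81.9% of probes were well above background per array, and the number of arrays limits the precision. The second array of WT sample 2 was the brightest, with median intensities of 735 (green) and 1040 (red). The other arrays reached at most 226 and 287. Samples did not cluster by group throughout: over all genes Auto.Pos sample 1 and Auto.Neg sample 2, hybridised on the same slide and scanned on the same day, correlated at 0.978, while the Auto.Pos samples correlated at 0.904 and the Auto.Neg samples at 0.903. Auto.Pos sample 2 and WT sample 2 shared a scan day, and Edited, Non-edited and Auto.Neg sample 1 shared another. Differences within a shared slide or scan day are given below for the members, and for other genes where stated, as values with no test. Cd79b, a subunit of the B cell receptor, read 5.38 to 6.10 in the 8 samples, and Ms4a1 (CD20) read 8.60 to 9.57. Cd93, a marker of transitional B cells, lay between -4.34 and -3.03. As ratios to a pool of cell lines these values cannot check the cell type label. The mean of 6 B cell markers was 4.21 to 5.12 over the samples, and that of 3 erythroid markers 4.03 to 5.58. For 4 neutrophil markers it was 2.26 to 4.23. The B cell markers were not picked to tell follicular from marginal zone B cells.

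Cr2, S1pr3 and Notch2 are each read by several probes with different values, and the first 30 bases of these probes are shown because the results for the 3 genes depend on which probe is read. The brightest probe stood for the gene. All letters are in lower case since no part of them was singled out, and positions are those of build mm7 in the array annotation. The Cr2 probes lie at chr1:194695473-194695532 and chr1:194717651-194717710 on the minus strand, the second 22178 bases upstream of the brightest.

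Cr2 brightest probe: aaacacgagaagtatattctattgatccat

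Cr2 second probe: gctcctcctatatgtgaatctgtgaataaa

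The S1pr3 probes lie on the plus strand at chr13:50454619-50454678 and, 1671 bases upstream, chr13:50452948-50453007. The Notch2 probes, also on the plus strand, lie at chr3:98021215-98021274, chr3:98020144-98020203 and chr3:98018506-98018565. Whether they fall in coding or untranslated exons was not analysed here.

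S1pr3 brightest probe: tcactgatattaatcacacattgtacagga

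S1pr3 second probe: atctcctgaggaggagacccaaggagtcac

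Notch2 brightest probe: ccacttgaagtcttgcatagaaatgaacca

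Notch2 second probe: tctgtggtaatctaggatgatagttttctc

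Notch2 last probe: cccagagtctcctgaccaatggtcaagctc

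**Figure D1:**
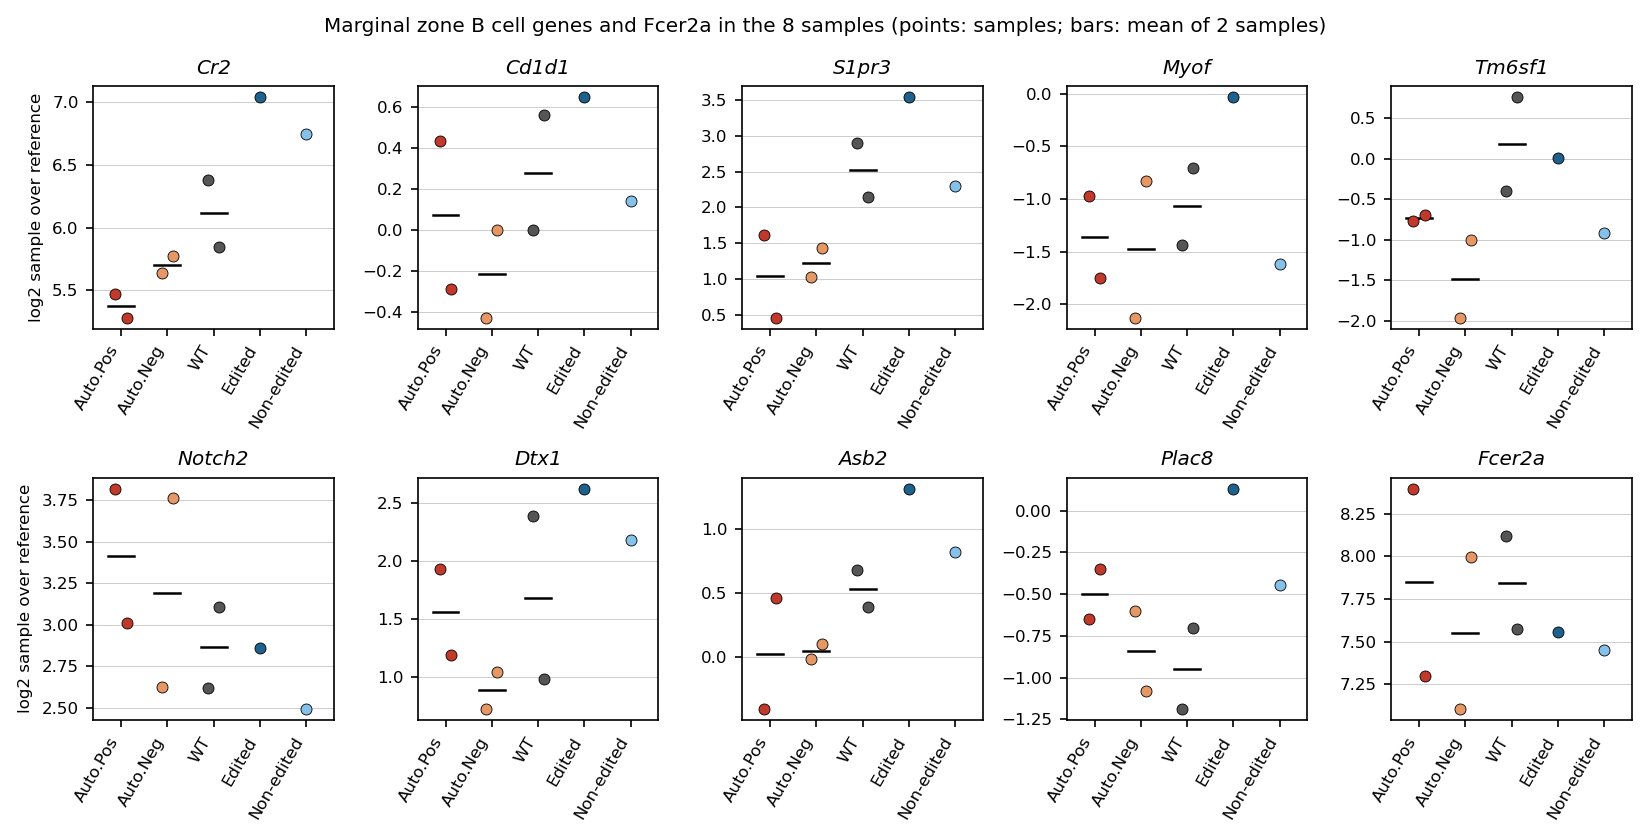
Log2 ratio of sample over reference (vertical axis of each panel, own scale) for the 10 genes in Auto.Pos, Auto.Neg, WT, Edited and Non-edited; each point is a sample and each bar the mean of the 2 samples of a group. In Cr2, S1pr3 and Tm6sf1 both WT points lie above all 4 Auto.Pos and Auto.Neg points, and in 7 of the 9 marginal zone genes Edited is the highest point.

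No member passed the threshold in any comparison of replicated groups (limma over 20469 genes, Benjamini-Hochberg adjusted p under 0.05), and the array as a whole held few calls: 3 genes (0.0147% of those tested) in Auto.Pos against Auto.Neg, 0 (0%) in Auto.Pos against WT and 0 (0%) in Auto.Neg against WT. At an unadjusted p under 0.05, limma gave 0 members in Auto.Pos against Auto.Neg, where 1.04% of all genes did so. It gave 2 members, S1pr3 and Cr2, in Auto.Pos against WT, where 5.63% of all genes did so. It gave 2, Tm6sf1 and S1pr3, in Auto.Neg against WT, where 4.6% did so. The comparisons share samples: WT serves for Auto.Pos and for Auto.Neg. Across the 10 members the median difference was 0.25 for Auto.Pos against Auto.Neg, -0.25 for Auto.Pos against WT and -0.45 for Auto.Neg against WT, beside medians over all genes of 0.02, 0.06 and 0.04.

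Among the surface receptors, Cr2 binds complement-tagged antigen and lowers the threshold of B cell activation. It read 5.47 and 5.28 in Auto.Pos, 5.64 and 5.77 in Auto.Neg and 6.38 and 5.85 in WT, with 7.04 in Edited and 6.75 in Non-edited. Averaged over the dye-swap arrays, the groups stood in the order Auto.Pos, Auto.Neg and WT without overlap, and both Edited and Non-edited lay above all 6. On the arrays with the sample in the dye Cy3 the groups overlapped. There WT sample 2 read 5.58, below both Auto.Neg samples (5.64 and 6.08) and Auto.Pos sample 1 (5.68). Auto.Pos lay below WT (difference -0.73, SE 0.251, limma adjusted p = 0.804), with -0.56 between the samples of the shared scan day, and below Auto.Neg (difference -0.33, SE 0.251, limma adjusted p = 1), with -0.30 on the shared slide. The gap between Auto.Neg sample 2 and WT sample 2 was narrow, and on the second Cr2 probe the groups overlapped: it read 0.83 and 0.48 in Auto.Pos, 0.51 and 0.73 in Auto.Neg and 1.2 and 0.55 in WT. That probe also put Edited (1.56) and Non-edited (1.47) highest.

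Cr2 is also carried by follicular dendritic cells, so their markers stand beside it. Of the 4 listed, Cxcl13, the chemokine that defines them, was below the dim filter. The mean of the other 3 was 1.08 and -0.05 in Auto.Pos, 0.00 and 0.15 in Auto.Neg and 0.12 and -0.03 in WT, with -0.38 in Edited and -0.27 in Non-edited. Clu was not well above background on either array of Non-edited. The high value came from Clu, at 3.70 in Auto.Pos sample 1. On the shared slide Clu was 2.91 higher in that sample than in Auto.Neg sample 2, while Mfge8 and Madcam1 differed by -0.17 and 0.03. The platelet markers Ppbp, Pf4 and Gp9 differed there by 3.95, 3.43 and 2.62, and Itga2b by 0.33. Itga2b was dim, well above background on 7 of 16 arrays. Which cells gave the Clu value was not tested. In bulk samples fewer cells of a type and less RNA per cell cannot be told apart.

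S1pr3, a receptor for sphingosine 1-phosphate, had the widest range of the members. It read 1.61 and 0.46 in Auto.Pos, 1.03 and 1.43 in Auto.Neg and 2.90 and 2.15 in WT, with 3.55 in Edited and 2.30 in Non-edited. Both WT samples stood above all 4 transgenic samples of the replicated groups, whose own values overlapped. Auto.Pos lay below WT (difference -1.49, 2.81-fold, SE 0.480, limma adjusted p = 0.769), and by -1.70 within the shared scan day. On the shared slide Auto.Pos minus Auto.Neg was 0.18, beside -0.19 between the group means. Auto.Neg lay below WT (difference -1.30, 2.46-fold, SE 0.480, limma adjusted p = 1). Auto.Neg and WT never shared a slide or a day of scanning, so that no such value exists for them. Over the alternative settings the difference between Auto.Pos and WT ran from -2.07 to -0.18, the last in the submitters' table as labelled. Its limma adjusted p never went below 0.215, the value with the scanner protocol as a block. The difference was -0.92 without Auto.Pos sample 2.

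The second S1pr3 probe did not show this pattern. It read 0.18 and 0.24 in Auto.Pos, 0.08 and 0.12 in Auto.Neg and 0.33 and 0.08 in WT, a difference of 0.00 between Auto.Pos and WT. It was dim, with its sample channel well above background on 13 of 16 arrays and its reference channel on 8, against 16 and 16 for the brightest probe. Edited, at 0.78, was its highest sample. It was not well above background on either array of Non-edited, so that no fold is given between Edited and Non-edited.

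Cd1d1, which presents lipids to natural killer T cells, had the narrowest range of the members over the 8 samples, 1.08. It read 0.44 and -0.29 in Auto.Pos, -0.43 and 9e-04 in Auto.Neg and 0.0013 and 0.56 in WT, with 0.65 in Edited and 0.14 in Non-edited. Auto.Pos overlapped with Auto.Neg and with WT, and Auto.Neg lay below WT (difference -0.49, SE 0.361, limma adjusted p = 1), where the nearest samples of the groups almost touched. With the sample in Cy3 Auto.Neg sample 2 read 0.33 and WT sample 1 0.07. Within batches Cd1d1 differed by 0.44 on the shared slide, beside 0.29 between the means of Auto.Pos and Auto.Neg, and by -0.85 on the shared scan day, beside -0.21 between those of Auto.Pos and WT. The close paralog Cd1d2 was above background on 5 of 16 arrays and was not tested. Whether its RNA adds to the Cd1d1 probe was not analysed.

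Tm6sf1, a transmembrane protein, gave the largest difference of the members between replicated groups. It read -0.77 and -0.69 in Auto.Pos, -1.96 and -0.998 in Auto.Neg and -0.40 and 0.76 in WT, with 0.01 in Edited and -0.91 in Non-edited. Both WT samples again stood above the other 4, and Auto.Pos stood between Auto.Neg and WT. With the sample in Cy3, however, WT sample 1 read -0.33 and Auto.Pos sample 1 -0.30. The difference between Auto.Neg and WT was -1.66 (3.16-fold, SE 0.504, limma adjusted p = 0.937). Auto.Pos lay below WT (difference -0.91, SE 0.504, limma adjusted p = 1), with -1.46 on the shared scan day, and 0.75 above Auto.Neg (SE 0.504, limma adjusted p = 1), with 0.23 on the shared slide. Without WT sample 2 the differences from WT were -0.33 for Auto.Pos and -1.08 for Auto.Neg, and without Auto.Neg sample 1 Auto.Pos lay 0.27 above Auto.Neg. The second probe, 140 bases downstream, gave -1.34, -0.67 and 0.68 for the same comparisons, and the probes correlated at 0.967 over the 8 samples. On it, however, Auto.Pos sample 1 at -0.29 was close to WT sample 1 at -0.16. Auto.Pos sample 2 at -0.655 lay below Auto.Neg sample 2 at -0.57 there, so that these groups overlapped.

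Myof (myoferlin), of the ferlin family of membrane repair and fusion proteins, overlapped between the replicated groups. It read -0.97 and -1.75 in Auto.Pos, -2.12 and -0.83 in Auto.Neg and -1.44 and -0.70 in WT, with -0.03 in Edited and -1.62 in Non-edited. The gap within Auto.Neg was 1.29, wider than any difference between group means, which were 0.12, -0.29 and -0.41 for Auto.Pos against Auto.Neg, Auto.Pos against WT and Auto.Neg against WT. The differences were -0.14 on the shared slide and -1.05 on the shared scan day. With the scanner software's log ratio both WT samples lay above the other 4, with differences of -0.98 for Auto.Pos against WT and -1.40 for Auto.Neg against WT. Its sample channel was well above background on 14 of 16 arrays, the exceptions being 1 array of Auto.Pos and 1 of Auto.Neg. A second Myof probe, 233 bases upstream, had 16 of 16 arrays and read 0.55 in Edited and -1.02 in Non-edited.

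Plac8, a small cysteine-rich protein, read -0.65 and -0.35 in Auto.Pos, -0.60 and -1.08 in Auto.Neg and -1.19 and -0.70 in WT, with 0.13 in Edited and -0.44 in Non-edited. Auto.Pos lay above WT without overlap, by 0.45 (SE 0.291, limma adjusted p = 1), and by 0.35 within the shared scan day. On the shared slide it lay 0.43 above Auto.Neg. The gap between Auto.Pos sample 1 and WT sample 2 was small beside the spread within WT. With the sample in the dye Cy5 the former read -0.97 and the latter -0.63, so that the groups overlapped.

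In the Notch branch, Notch2, the receptor itself, read 3.82 and 3.01 in Auto.Pos, 2.62 and 3.77 in Auto.Neg and 2.62 and 3.11 in WT, with 2.86 in Edited and 2.49 in Non-edited. All 3 groups overlapped, and the highest values were those of the samples of the shared slide, Auto.Pos sample 1 and Auto.Neg sample 2. Auto.Pos lay 0.55 above WT (SE 0.497, limma adjusted p = 1), and -0.10 within the shared scan day. On the shared slide Auto.Pos minus Auto.Neg was 0.05. The second Notch2 probe gave 0.74 for Auto.Pos minus WT. It read 2.26 and 2.12 in Auto.Pos, 1.80 and 1.83 in Auto.Neg and 1.68 and 1.23 in WT. On that probe, unlike the brightest, the 3 groups did not overlap. The remaining Notch2 probe gave 0.16. These other probes correlated with the brightest at 0.375 and 0.594 over the 8 samples, against 0.675 for the S1pr3 probes, 0.789 for Myof and 0.933 for Cr2.

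Dtx1 (Deltex 1), a target and modulator of Notch, read 1.93 and 1.18 in Auto.Pos, 0.72 and 1.04 in Auto.Neg and 2.39 and 0.98 in WT, with 2.62 in Edited and 2.18 in Non-edited. The WT samples spanned 1.41, which covered Auto.Pos whole. Auto.Pos lay 0.68 above Auto.Neg without overlap (1.60-fold, SE 0.537, limma adjusted p = 1), and 0.89 on the shared slide. On the shared scan day it lay 0.20 above WT, while the difference of means was -0.13. Asb2, the substrate-binding part of a ubiquitin ligase, read -0.41 and 0.46 in Auto.Pos, -0.02 and 0.10 in Auto.Neg and 0.68 and 0.39 in WT, with 1.32 in Edited and 0.82 in Non-edited. Auto.Neg lay below WT without overlap (difference -0.49, SE 0.337, limma adjusted p = 1), and Auto.Pos overlapped with both. Asb2 differed by -0.51 on the shared slide, beside -0.02 between the means of Auto.Pos and Auto.Neg, and by 0.07 on the shared scan day, beside -0.51 between those of Auto.Pos and WT.

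Beyond the members, 39 of 42 listed Notch pathway genes were tested (Jag1, Jag2 and Ncstn were below the filter) and 0 were called in any comparison of replicated groups. The list's median difference was -0.01 for Auto.Pos against Auto.Neg, 0.04 for Auto.Pos against WT and 0.10 for Auto.Neg against WT, near the medians over all genes. Of its genes whose groups did not overlap, the furthest apart in Auto.Pos against WT was Hes1, a Notch-driven repressor, at -1.82 and -0.59 in Auto.Pos, against -0.19 and -0.39 in WT. Adam17, a protease that cleaves Notch receptors among other proteins, followed with 0.92 and 0.55 in Auto.Pos, against 1.85 and 1.16 in WT. Snw1, a Notch coactivator and splicing factor, lay higher, at 0.94 and 0.87 in Auto.Pos, against 0.27 and 0.51 in WT. So did the fringe enzyme Lfng, by 0.49. On the shared scan day Hes1 differed by -0.20, Adam17 by -0.61, Snw1 by 0.36 and Lfng by 0.84. In Auto.Pos against Auto.Neg, Pofut1, which puts fucose on Notch, differed by -0.90, Adam17 by -0.53 and the Notch target Nrarp by -0.47. On the shared slide Pofut1 differed by -0.59, Adam17 by -0.13 and Nrarp by -0.08. In Auto.Neg against WT, the Deltex genes went different ways: Dtx3 by 0.90, Dtx2 by 0.48 and Dtx4 by -0.72. Lfng differed by 0.47 there.

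Cr2 is among the genes with the letters that Rbpj is known to bind within the window kept here, and this window is shown for that reason. The promoter sequences are those of RefSeq on build GRCm38.p6, 250 bases before to 50 after each annotated start, and 8 of the 10 members had at least 1 (Cd1d1 and Tm6sf1 had none in the table). The motif searched was GTGGGAA on either strand, and the shorter TGGGAA, which GTGGGAA contains. GTGGGAA was in 6.38% of all 32851 promoters and TGGGAA in 25.6%. These shares are per promoter, while a member with several annotated starts has several promoters. Among the members GTGGGAA was in Cr2 alone, starting 221 bases before its start on the strand of the gene, and the 250 bases before that start, chr1:195176720-195176969 on the minus strand, are shown. TGGGAA was in 4 members: Cr2, S1pr3, 1 of 2 annotated starts of Plac8 and 2 of 3 of Fcer2a. Notch2, Dtx1, Asb2 and Myof had no match to either motif. In S1pr3 TGGGAA began 13 bases past the start, and 30 bases around the match, chr13:51408619-51408648 on the plus strand, are shown. All 30 lie past the annotated start. Capitals mark the motif.

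Cr2 promoter: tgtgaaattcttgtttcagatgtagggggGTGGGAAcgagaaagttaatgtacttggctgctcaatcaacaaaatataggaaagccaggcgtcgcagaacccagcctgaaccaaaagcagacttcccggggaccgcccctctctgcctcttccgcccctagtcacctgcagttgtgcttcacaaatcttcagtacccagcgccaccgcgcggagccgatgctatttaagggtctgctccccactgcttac

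S1pr3 around its start: cggggacgtggcTGGGAAccagggcgtatc

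A match is a description of letters and not of binding.

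Fcer2a, the low-affinity IgE receptor that marks follicular B cells, read 8.40 and 7.30 in Auto.Pos, 7.10 and 8.0 in Auto.Neg and 8.12 and 7.57 in WT, with 7.56 in Edited and 7.45 in Non-edited. All groups overlapped, and the differences were 0.30, 0.00 and -0.29 for Auto.Pos against Auto.Neg, Auto.Pos against WT and Auto.Neg against WT. Fcer2a differed by 0.40 on the shared slide and by -0.27 on the shared scan day. The value of a sample depended on the dye: the arrays of a dye-swap pair differed by 1.5 to 2.82 for Fcer2a, against at most 0.98 for any other member. Of the 6 follicular counter-markers, 0 were called in any of the 3 comparisons. In Auto.Pos against WT 4 of the 6 lay higher and 2 lower, with a median of 0.17, beside 0.06 over all genes.

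**Figure D2:**
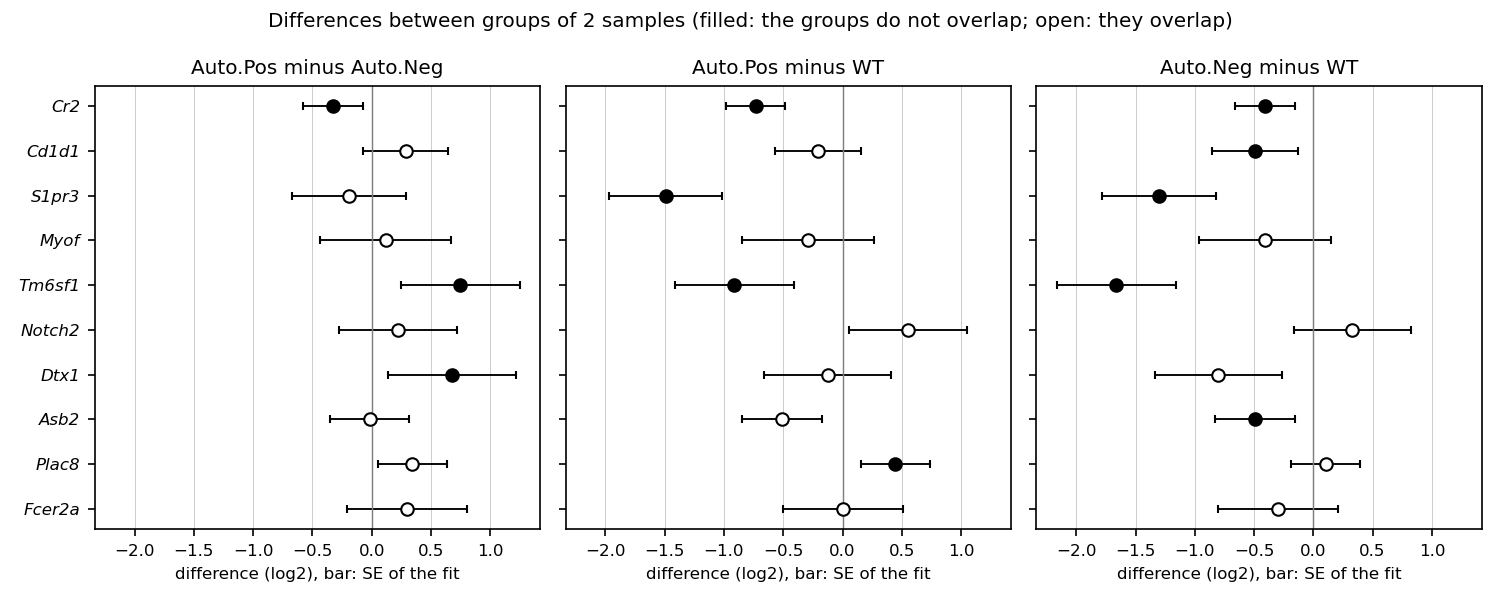
Difference of group means on the log2 scale (horizontal axis) for each gene in the 3 comparisons of groups with 2 samples each; bars are the standard error of the limma fit and filled points mark groups that do not overlap. S1pr3 lies furthest from 0 in Auto.Pos minus WT, at -1.49, and Tm6sf1 in Auto.Neg minus WT, at -1.66.

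Counted over the members, Auto.Neg against WT had 5 of 10 below WT without overlap (Cr2, Cd1d1, S1pr3, Tm6sf1 and Asb2) and 0 above, where 9.57% of all genes lay below and 15.4% above. Auto.Pos against WT had 3 below (Cr2, S1pr3 and Tm6sf1) and 1 above (Plac8), where 10.4% and 19.2% of all genes did so. Auto.Pos against Auto.Neg had 1 below (Cr2) and 2 above (Tm6sf1 and Dtx1), where 8.17% and 11.1% did so. In 3 members, Cr2, S1pr3 and Tm6sf1, both WT samples lay above all 4 samples of Auto.Pos and Auto.Neg, as in 5.5% of all genes. S1pr3 and Tm6sf1 were in this group under each of 4 other settings tried for it, chosen after the data were seen, and Cr2 was in it under 1 of the 4, the scanner software's log ratio. Myof joined the group under that setting, and Asb2 with scale normalization. All these counts use the brightest probe of each gene and values averaged over the dye-swap pairs. In single dye orientations S1pr3 stayed in the group, while Cr2 and Tm6sf1 left it with the sample in Cy3. The list was chosen for its biology, but with earlier results of these data known. It is small, and the counts carry no test.

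Values of macrophage markers stand beside these counts. All 7 listed were tested and 0 were called, and their mean was 2.68 and 1.92 in Auto.Pos, 1.47 and 2.32 in Auto.Neg and 2.50 and 2.46 in WT. Of the 7, 4 lay lower and 3 higher in Auto.Pos than in WT, and 6 lower and 1 higher in Auto.Neg. Adgre1 (F4/80), which defines splenic red pulp macrophages, read 5.18 and 4.57 in Auto.Pos, 3.83 and 4.94 in Auto.Neg and 5.62 and 5.42 in WT. Of the platelet markers 0 were called, and their median difference between Auto.Pos and Auto.Neg was 1.68 over 4 genes, with a list mean of 2.47 and 0.31 in Auto.Pos, -0.21 and -0.12 in Auto.Neg and -0.55 and 1.23 in WT. The platelet list holds Itga2b, well above background on 7 of 16 arrays. The part of macrophages and platelets in the members' values was not tested.

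In Edited against Non-edited the members all differed in the same direction, with 1 sample a group and so no replicate check. The samples were on different slides, so that slide and group cannot be told apart. All 10 members read higher in Edited than in Non-edited, with a median difference of 0.50, beside -0.03 over all genes. The 11 tested genes of a further marginal zone list, given below, did not share this direction. Of them 5 read higher and 6 lower, with a median of -0.04. S1pr3 and Myof were at least 2-fold higher in both dye orientations, as were 1.22% of genes, while 0.172% were at least 2-fold lower. S1pr3 differed by 1.24 (2.37-fold), with 1.16 and 1.33 in the dye orientations. Myof differed by 1.59 (3.01-fold), with 1.47 and 1.71, and by 1.56 on its second probe.

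The other members differed by less: Tm6sf1 by 0.92, Plac8 by 0.58, Cd1d1 by 0.51, Asb2 by 0.50, Dtx1 by 0.44, Notch2 by 0.37, Cr2 by 0.29 and Fcer2a by 0.11. Fcer2a had opposite signs in the dye orientations, 0.23 and -0.01. Notch2 was higher in Edited on the brightest probe alone, with differences of -0.20 and -0.23 on the others. In S1pr3, Myof and Plac8 the difference was wider than the widest gap within Auto.Pos, Auto.Neg or WT, as in 5.3% of all genes. Those gaps were 1.15, 1.29 and 0.49.

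Edited was also the highest of all 8 samples in 7 of the 9 marginal zone genes, as in 8.87% of all genes. The exceptions were Tm6sf1, highest in WT sample 2, and Notch2, highest in Auto.Pos sample 1. Under the 4 other settings tried after the data were seen the count was 6 or 7. The mean of 6 general B cell markers was also highest in Edited, at 5.12, followed by Non-edited at 4.92. It lay between 4.21 and 4.75 in the other samples. Of these markers 5 read higher in Edited than in Non-edited and 1 lower, with a median difference of 0.10. Their relation to the members' values was not tested. Non-edited shared the transgenes and the Thy-1 knockout with Edited and correlated with it at 0.974, and with Auto.Neg sample 1 at 0.976. It was second highest for Cr2 and Asb2, and for S1pr3, Dtx1 and Plac8 it came after Edited and 1 other sample.

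**Figure D3:**
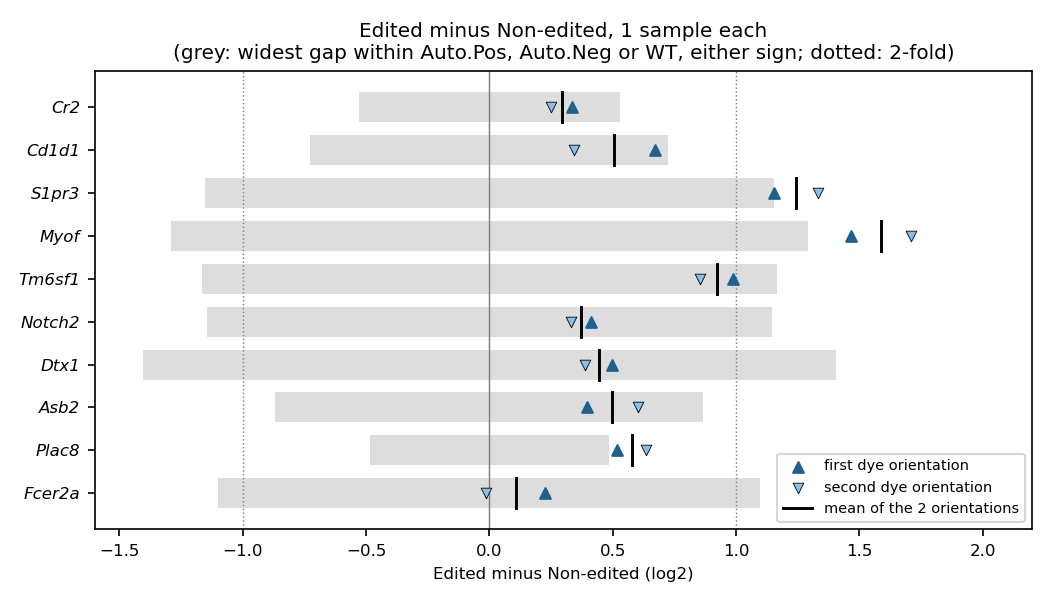
Edited minus Non-edited on the log2 scale (horizontal axis) for each gene, with triangles for the 2 dye orientations and a black line for their mean; grey bars span the widest gap between the 2 samples of Auto.Pos, Auto.Neg or WT, drawn on both sides of 0. S1pr3, Myof and Plac8 have means beyond the grey bar.

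Some genes of splenic macrophages were also higher in Edited. Adgre1 differed by 1.49 (1.02 and 1.97 in the dye orientations), and Marco, which marks macrophages of the marginal zone, by 1.06 (0.87 and 1.26). Of the 7 macrophage markers 6 lay higher and 1 lower, with a list mean of 1.52 in Edited and 1.09 in Non-edited, both below the WT means given above. Cd209b, another marker of marginal zone macrophages, differed by -0.07 (-0.19 and 0.06 in the dye orientations). It was well above background on only 1 array of Non-edited. The part of macrophages in the members' difference was not tested. In the Notch list Dtx4 alone was at least 2-fold higher in both orientations, by 1.66, with 20 of 39 genes higher and 19 lower. Hes1 was 1.28 in Edited and 1.21 in Non-edited, above the other 6 samples, which ranged from -2.32 to -0.17.

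Of 12 further marginal zone genes, 11 were tested and 0 called in the replicated comparisons. In Auto.Neg against WT 9 lay lower and 2 higher, with a median of -0.56 beside 0.04 over all genes, and 6 of the 9 lower ones did not overlap with WT, as in 9.57% of all genes. In Auto.Pos against WT 6 lay lower and 5 higher, with a median of -0.06 beside 0.06 over all genes. In Edited against Non-edited 5 lay higher and 6 lower, with a median of -0.04 beside -0.03 over all genes. The furthest apart was Cd9, a tetraspanin, which differed by 2.64 in Auto.Pos against Auto.Neg, 1.99 in Auto.Pos against WT and 2.51 in Edited against Non-edited, and by -0.64 in Auto.Neg against WT. S1pr1, the sphingosine 1-phosphate receptor for leaving lymphoid tissue, read 4.76 and 5.73 in Auto.Pos, 5.41 and 4.73 in Auto.Neg and 6.57 and 5.86 in WT. All 4 samples of Auto.Pos and Auto.Neg lay below both WT samples, with differences of -0.97 and -1.15, but the difference on the shared scan day was -0.13. Sema7a, a membrane-anchored semaphorin, differed by -1.21 between Auto.Pos and WT and by -0.62 between Auto.Neg and WT. Tnfrsf13b (TACI), a receptor for BAFF and APRIL, differed by -0.75 and -0.96.

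Of the 7 genes known to be needed for the marginal zone pool in mice, 0 were called. Rac2, a GTPase of migration and adhesion, read 1.31 and 1.5 in Auto.Pos, 1.60 and 1.31 in Auto.Neg and 1.86 and 2.09 in WT, a difference of -0.57 and -0.52 from WT. Dock8, an activator of small GTPases, lay 0.65 above WT in Auto.Pos.

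Genes whose pattern was most like that of the members with the widest ranges were looked up among 6890 named genes with a range of at least 1, by Pearson correlation over the 8 samples. The samples share the reference and, in part, slides and scan days, and the closest of so many genes are given as a description. Closest to S1pr3 were Ifnlr1 (0.963), Gbp5 (0.945) and Olfr433 (0.934). Ifnlr1, a chain of the interferon lambda receptor, read -0.67 and -1.67 in Auto.Pos, -0.83 and -0.52 in Auto.Neg and 0.32 and -0.08 in WT, with 0.47 in Edited and -0.05 in Non-edited. Closest to Tm6sf1 were Mppe1 (0.931), Ddx5 (0.926) and Acyp1 (0.919), and closest to Myof were Akap11 (0.979), Etfrf1 (0.957) and Rab6b (0.943). Among the members, Cr2 correlated with S1pr3 at 0.893 and with Asb2 at 0.835, and Cd1d1 with Myof at 0.875. Notch2 correlated with Cr2 at -0.517, with Asb2 at -0.617, with Cd1d1 at 0.268, with Myof at 0.418 and with Fcer2a at 0.633.

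**Figure D4:**
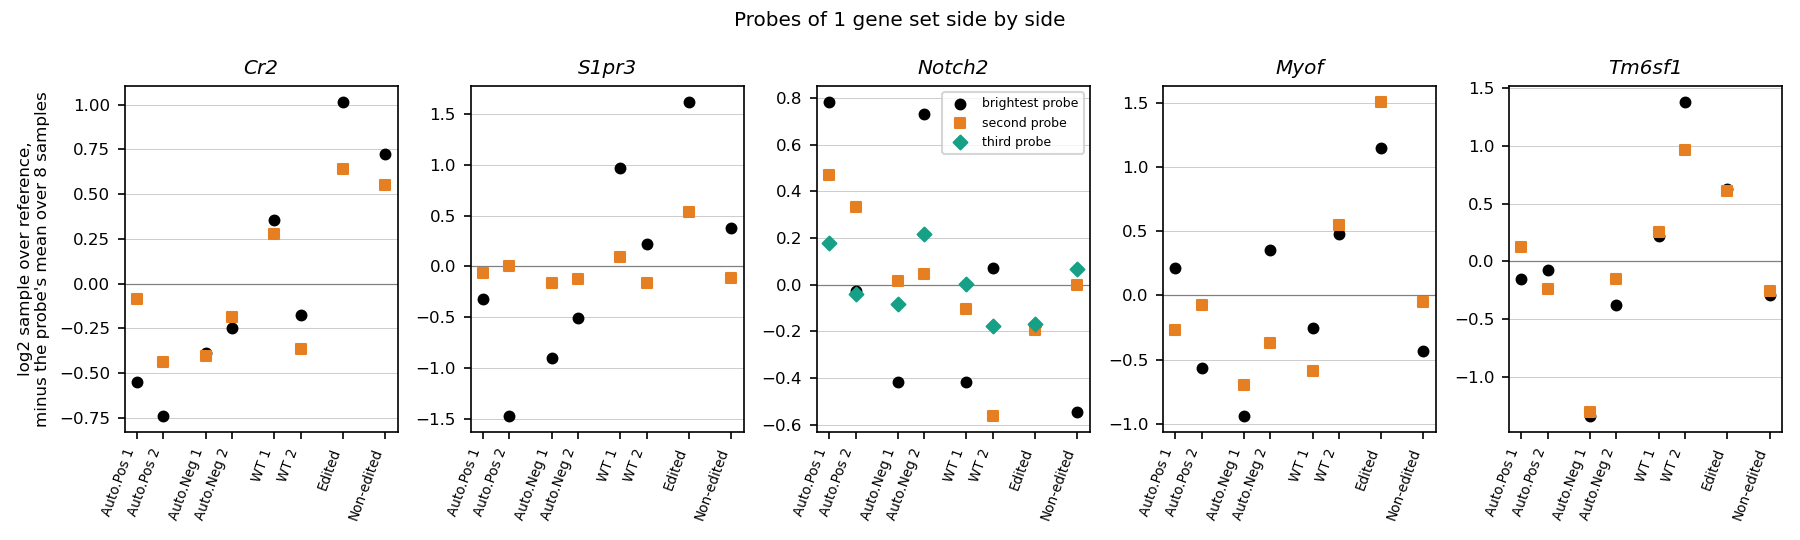
Log2 ratio of sample over reference minus the probe's mean over the 8 samples (vertical axis) for the 5 genes with more than 1 kept probe; each mark is a sample on the brightest or another probe. The Tm6sf1 probes follow each other, the second S1pr3 probe is flatter than the brightest and was not well above background in Non-edited, and the Notch2 probes differ in which samples are high.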

How the data were processed

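The members and gene lists were chosen with earlier results of these data known. Per the file headers, the deposited scanner files hold mean foreground and median background intensity per channel, from Agilent Feature Extraction 9.1.1.1, 9.1.3.1 and 9.5.1.1, and a log10 ratio after spatial detrending, background subtraction and lowess. The deposited series table holds a log2 ratio per array; limma is named per the submitters' processing notes, with no version. Of its 16 columns 10 matched another array best and 8 had the opposite sign (absolute correlation 0.944 to 0.996), so it served as an alternative. The series table has 0 columns of no sample. Per the labels' protocols, RNA came by acid phenol and 100 ng were amplified.

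Intensity was corrected with normexp (offset 50) and loess normalized using limma 3.58.1 (R 4.3.3; files read by data.table, version 1.17.8), control spots at weight 0 and outlier spots left out. Dye-swapped ratios were turned round, so that each is sample over reference, and pairs averaged. Probes stayed in if well above background in the sample channel on both arrays of at least 2 samples (29640 of 41174), and the brightest stood for its gene. limma fitted 1 mean per group (3 residual and 2.11 prior degrees of freedom). Edited against Non-edited, 1 sample each, had no test. Sample numbers did not pair samples across groups (correlation of deviations -0.788, 0.252 and -0.279 for Auto.Pos with Auto.Neg, Auto.Pos with WT and Auto.Neg with WT). The code was tested on simulated data. All 10 members are named. Of other lists, up to 4 genes per list and comparison with the largest difference among groups without overlap were to be named, and, for likeness, the 3 closest genes to the 3 members of widest range; Marco, Cd209b and Hes1 in Edited were named after their values were seen.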

Additional observations from a re-analysis of the deposited data

How the results depend on the processing

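The count of members called stayed at 0 in each of 45 recomputed comparisons, and of the recomputed member differences 412 kept their direction and 38 changed sign, all of them uncalled. Of these 450 values 192 equalled the reported one, since the replicate block, the scanner protocol block and the absence of a dim filter left the members' differences as they were, a left-out sample leaves 1 comparison untouched, and the other probe choices keep many members' probes; of the 258 that moved, 220 kept their direction. With the scanner software's log ratio Asb2 in Auto.Pos against Auto.Neg became 0.0252, Fcer2a in Auto.Pos against WT -0.0631, and 15 genes were called in Auto.Pos against WT. With median centring the Fcer2a difference from WT was -0.13 and 1 gene was called in Auto.Pos against Auto.Neg; it moved the median of all genes in Edited against Non-edited to 0.10, from -0.03. With scale normalization Asb2 was 0.01 (Auto.Pos against Auto.Neg), Fcer2a -0.84 (Auto.Pos against WT), Notch2 -0.0137 (Auto.Neg against WT), and 5 genes were called in Auto.Pos against WT. In Auto.Pos against Auto.Neg, 0 genes were called by limma without the dim filter (365 at an unadjusted p under 0.05), 0 with the replicate block (130) and 6 with the scanner protocol as a block (555). With the protocol block 0 were called in Auto.Pos against WT (2201) and 0 in Auto.Neg against WT (2019). The main fit had 213, 1152 and 942 genes at that unadjusted p in the 3 comparisons. In the submitters' table as labelled 0 were called (0 at an unadjusted p under 0.05), Cr2 was 0.37 in Auto.Pos against Auto.Neg, Myof 0.10, Dtx1 0.0677 and Plac8 -0.0865 in Auto.Pos against WT, and Notch2 -0.20, Dtx1 8e-04, Asb2 0.0938 and Plac8 -0.41 in Auto.Neg against WT. Leaving out a sample at a time gave, in Auto.Pos against Auto.Neg, 0 to 0 genes called, Cd1d1 -0.0766 to 0.65, S1pr3 -0.77 to 0.38, Myof -0.53 to 0.76, Notch2 -0.35 to 0.79, Asb2 -0.45 to 0.42 and Fcer2a -0.25 to 0.85. In Auto.Pos against WT it gave Cd1d1 -0.57 to 0.15, Myof -0.68 to 0.10, Dtx1 -0.83 to 0.58 and Fcer2a -0.54 to 0.55, and in Auto.Neg against WT Myof -1.05 to 0.24, Notch2 -0.24 to 0.90, Plac8 -0.14 to 0.35 and Fcer2a -0.74 to 0.15. A group left with 1 sample was taken to vary like the others. The causes were not tested. Slide as a random block could not be fitted, since only 1 slide holds 2 samples.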
